A study of Mus musculus with 8 samples.

Results

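The 10 genes described here carry out or control androgen synthesis in the Leydig cells of the testis, and they were taken by symbol from a table of 19906 genes. They were Star, Cyp11a1, Hsd3b1, Hsd3b6, Cyp17a1, Hsd17b3, Srd5a1, Insl3, Lhcgr and Nr5a1, and the positions given below are those of the whole gene in GRCm38.p6. All 10 were found, each on 1 row, and all 10 passed the filter on low counts. RNA-seq was performed on whole testes of mice aged 2 months, with 4 mice labelled as Tmem232 knockouts (Tmem232-/-, libraries KO1 to KO4) and 4 labelled as wild type (Tmem232+/+, libraries WT1 to WT4). The knockout carries a deletion within Tmem232, made with CRISPR-Cas9 in C57BL/6 oocytes, in every cell of the animal, so no cell type was singled out. The question was how Leydig cell genes compare between testes with and without this gene, which is expressed mainly in germ cells. In RNA from a whole organ, fewer Leydig cells and less RNA per Leydig cell cannot be told apart.

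Leydig cells lie between the seminiferous tubules. Luteinizing hormone from the pituitary binds its receptor LHCGR on these cells, raises cyclic AMP and drives the expression of steroidogenic genes, many of which are bound by the nuclear receptor NR5A1. STAR moves cholesterol into the mitochondrion, where CYP11A1 cuts its side chain to give pregnenolone. HSD3B enzymes and CYP17A1 then turn pregnenolone into androstenedione, HSD17B3 reduces this to testosterone, and SRD5A1 reduces testosterone to dihydrotestosterone. INSL3 is a peptide hormone that adult Leydig cells secrete and that is widely used as a sign of their number and maturity.

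The total of estimated counts per library lay between 15428421 and 16350871, so differences in depth were small. Levels are given as CPM, a gene's counts scaled to a common library size with TMM factors. In the libraries labelled KO, Tmem232 reached 147.6, 132, 123 and 122 CPM, and in those labelled WT it reached 111, 106, 108 and 109.9 CPM. The count was therefore higher, not lower, in the libraries labelled KO, with a log2 fold change of 0.27 (SE 0.072, adjusted p = 0.0335 in edgeR with Benjamini-Hochberg adjustment). This count covers exons outside the deletion as well, so it checks neither label, and every direction below is given by the label. The summed level of 8 late spermatid markers was 889 to 1489 CPM in the libraries labelled KO and 221 to 379 CPM in those labelled WT. All 8 rose by the same test, where 10.3% of all tested genes were called higher. Their log2 fold changes ran from 1.07 for Spaca1 to 4.44 for Prm2, which was at 140 ± 55.0 against 6.44 ± 4.31 CPM (SD, n = 4). The part of this difference in germ cell RNA in the values below was not tested.

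Markers of Leydig cells and of the adrenal cortex that the 10 genes do not include were also read. Of 8 other Leydig cell markers, 7 were tested, and the summed level of the list was 121 to 191 CPM in the libraries labelled KO and 86.4 to 142 CPM in those labelled WT. Klk1b27, a kallikrein of a large family of near-identical genes, was the single one to pass, where 10.3% of all tested genes were called higher, with 6.20 ± 1.30 against 2.72 ± 1.49 CPM (SD, n = 4) and a log2 fold change of 1.19 (SE 0.31, adjusted p = 0.0275 in edgeR). The median log2 fold change of the 7 was 0.43. Several of the 10 genes are also expressed in the adrenal cortex. The 5 adrenal markers, among them Cyp11b1, Cyp11b2 and Cyp21a1, summed to 0.599 to 1.05 CPM and 0.623 to 1.84 CPM, and none was high enough to be tested.

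No gene of the 10 passed an adjusted p of 0.05 in either direction in edgeR, although 8 of the 10 had a higher mean in the libraries labelled KO. Among all 15787 tested genes, 10.3% were called higher and 1.46% were called lower at this threshold. DESeq2 called 2 of the 10 higher, Star and Lhcgr, and limma-voom called 1, Lhcgr. At an unadjusted p of 0.05 in edgeR, 5 of the 10 were higher, namely Star, Cyp11a1, Hsd3b1, Cyp17a1 and Lhcgr, where 14.6% of all tested genes were. None was lower, where 10.5% of all tested genes were. Both labels separated without overlap for 2 genes, Star and Cyp17a1, both higher in the libraries labelled KO, as for 11.8% of all tested genes. The reverse was found for none of the 10 and for 6.88% of all tested genes. The median log2 fold change was 0.36 over the 10 genes and -0.054 over all tested genes, of which 39.2% had a positive value.

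**Figure D1:**
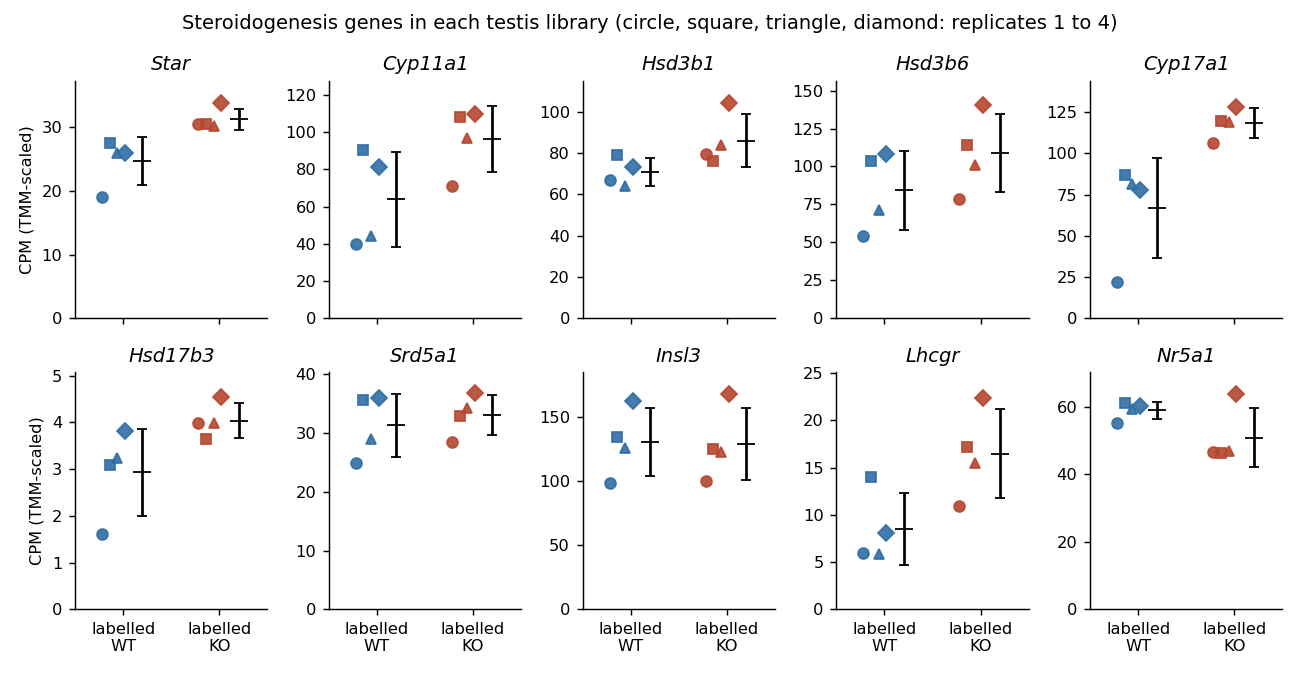
Level of each of the 10 genes in every library (y axis, CPM after TMM scaling, each starting at 0), by label (x axis), with a marker shape for each replicate number and black bars for the mean ± SD of 4 libraries. Points of Star and Cyp17a1 do not overlap between the labels, and KO4 is the highest of the 8 libraries for all 10 genes.

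Lhcgr (Entrez ID 16867, chr17:88716384-88792059), the gene of the luteinizing hormone receptor, had the largest log2 fold change of the 10 in edgeR with all 8 libraries, while Cyp17a1 exceeded it on the FPKM values and without KO4 or WT3. Its level was 11.0, 17.1, 15.4 and 22.3 CPM in KO1 to KO4. In WT1 to WT4 it was 5.92, 14.0, 5.89 and 8.11 CPM. WT2 lay above KO1, so the labels overlapped, while the other 3 libraries of each label did not. The means were 16.5 ± 4.68 and 8.49 ± 3.85 CPM (SD, n = 4), and the log2 fold change was 0.95 (SE 0.28, 95% interval 0.33 to 1.58). The adjusted p was 0.0512 in edgeR with Benjamini-Hochberg adjustment, just above the threshold of 0.05, and an exact two-sided permutation test over the 70 arrangements of the libraries gave p = 0.0571. Of 20 alternative analyses, 9 called Lhcgr higher, and the adjusted p-values of all 20 lay between 0.0034 and 0.127. Without WT2 the log2 fold change was 1.31 (adjusted p = 0.0034 in edgeR), and without KO1 it was 1.11 (adjusted p = 0.0323 in edgeR). Leaving out any other single library gave no call, with the lowest value, 0.79, without KO4 (adjusted p = 0.122 in edgeR) and the highest adjusted p, 0.127, without WT1.

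The sequence before the transcription start is shown for Lhcgr and Insl3, which had the largest log2 fold change and the one nearest to 0 in edgeR with all 8 libraries, as both windows hold letters of the motif known for the steroidogenic regulator NR5A1. The 250 bases before an annotated transcript start were read from RefSeq for GRCm38.p6, in the direction of transcription, Lhcgr from the minus strand at chr17:88792015-88792264 and Insl3 from the plus strand at chr8:71689002-71689251. The start used for Lhcgr lies inside the outer bound of the gene given above, so the last bases of its window belong to the gene, and its distances below are counted from that inner start. Capitals mark matches to TCAAGG or AGGTCA, overlapping pieces of the site to which NR5A1 is known to bind. In Lhcgr these matches run into each other with AGGTCA first, and the joined capitals do not hold the core AAGGTCA.
Lhcgr: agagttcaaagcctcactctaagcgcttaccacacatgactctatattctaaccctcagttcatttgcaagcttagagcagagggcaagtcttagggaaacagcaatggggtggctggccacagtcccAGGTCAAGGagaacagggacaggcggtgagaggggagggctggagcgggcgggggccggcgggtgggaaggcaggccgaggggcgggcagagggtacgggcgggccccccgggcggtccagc
Insl3: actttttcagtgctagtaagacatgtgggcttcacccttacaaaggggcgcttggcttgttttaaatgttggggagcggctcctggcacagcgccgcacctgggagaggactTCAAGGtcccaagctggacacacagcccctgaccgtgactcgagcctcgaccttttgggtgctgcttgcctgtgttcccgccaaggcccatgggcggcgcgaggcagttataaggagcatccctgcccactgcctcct
All motifs were searched on both strands. The core AAGGTCA was in none of the windows of the 7 genes that were matched, while 4.08% of 32851 mouse promoters of the same length held it. The shorter TCAAGG was added after that search. It was found 119 bases before this start in Lhcgr, 138 in Insl3 and, on the opposite strand, 128 in Hsd3b1, and in 12.5% of all promoters. AGGTCA was found 122 bases before the same start in Lhcgr, 28 before the downstream start of Cyp11a1 at chr9:58014702-58014951, and in 14.0% of all promoters. These letters occurred in genes with unlike fold changes. No entry was matched for Star, Cyp17a1 and Nr5a1.

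Star (Entrez ID 20845, chr8:25808474-25815982), whose protein supplies cholesterol to the mitochondrion and is the fast, hormone-controlled step of the pathway, was higher in every library labelled KO than in any labelled WT. Its level was 30.6, 30.5, 30.2 and 33.8 CPM in KO1 to KO4, and 19.1, 27.6, 26.0 and 26.0 CPM in WT1 to WT4. The first 3 libraries labelled KO were close to each other, and WT1 was the lowest of all. The means were 31.3 ± 1.69 and 24.7 ± 3.78 CPM (SD, n = 4), with a log2 fold change of 0.34 (SE 0.11, 95% interval 0.10 to 0.58). The adjusted p was 0.0718 in edgeR and 0.0293 in DESeq2, and the exact permutation test gave p = 0.0286, the smallest it can give.

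Cyp11a1 (Entrez ID 13070, chr9:57998024-58027031) encodes the side-chain cleavage enzyme that commits cholesterol to steroid synthesis, and it varied widely among the mice labelled WT. Its level was 70.9, 107.9, 96.7 and 109.9 CPM in KO1 to KO4, against 39.8, 90.5, 44.0 and 81.0 CPM in WT1 to WT4. WT1 and WT3 were the low pair, and WT2 and WT4 lay above KO1. The means were 96.4 ± 17.9 and 63.8 ± 25.7 CPM (SD, n = 4), and the log2 fold change was 0.59 (SE 0.25, adjusted p = 0.164 in edgeR). The exact permutation test gave p = 0.114.

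Hsd3b1 (Entrez ID 15492) and Hsd3b6 (Entrez ID 15497) encode the 3β-hydroxysteroid dehydrogenases of the mouse testis, and Hsd3b6 is known as the form of adult Leydig cells. Hsd3b1 had 79.7, 76.2, 84.2 and 104.5 CPM in KO1 to KO4 and 66.9, 79.3, 64.2 and 73.3 CPM in WT1 to WT4. The labels overlapped through KO2, which lay below WT2. Its log2 fold change was 0.28 (SE 0.11, 95% interval 0.05 to 0.51, adjusted p = 0.124 in edgeR), and the exact permutation test gave p = 0.0571. Hsd3b6 had 78.8, 114, 101 and 140.4 CPM in KO1 to KO4 and 54.1, 103, 71.1 and 108 CPM in WT1 to WT4. Its labels overlapped more, with KO1 and KO3 below WT2 and WT4. Its log2 fold change was 0.37 (SE 0.22, 95% interval -0.11 to 0.85, adjusted p = 0.328 in edgeR), and the exact permutation test gave p = 0.2. Without KO4 it was 0.23.

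The coding sequences of both genes are alike, which bears on how reads could be divided between them. Each has 1119 bases in GENCODE M21, of which 1007 (90.0%) are the same when read side by side without gaps. The genes lie on chromosome 3, at chr3:98842356-98859794 for Hsd3b1 and chr3:98805504-98814443 for Hsd3b6. Bases 1 to 120 from the start codon are printed 5′ to 3′ with capitals where the pair differ, at 20 bases.
Hsd3b1: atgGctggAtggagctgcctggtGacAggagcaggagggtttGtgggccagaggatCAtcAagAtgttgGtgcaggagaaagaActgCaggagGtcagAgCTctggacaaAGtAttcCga
Hsd3b6: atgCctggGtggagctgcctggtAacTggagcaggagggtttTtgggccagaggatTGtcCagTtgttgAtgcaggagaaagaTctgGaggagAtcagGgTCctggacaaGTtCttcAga
Of all 50-base stretches of the transcript, 4.98% in Hsd3b1 and 16.1% in Hsd3b6 also occur in at least 1 other gene, not always of this pair. A read from such a stretch could be counted for another gene that holds it, so the levels of this pair are less certain than those of genes without such stretches.

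Cyp17a1 (Entrez ID 13074, chr19:46667165-46673000) encodes the enzyme that turns progestins into androgens, and it separated the labels without overlap. Its level was 106, 119.9, 119 and 128 CPM in KO1 to KO4, against 22.1, 87.0, 81.3 and 77.5 CPM in WT1 to WT4. WT1 stood far below the others, and the mean of WT2 to WT4, 81.9 CPM, was 3.71-fold the level of WT1. The means over all libraries were 118 ± 9.09 and 67.0 ± 30.2 CPM (SD, n = 4), and the log2 fold change was 0.82 (SE 0.31, 95% interval 0.14 to 1.50). The adjusted p was 0.125 in edgeR, and the exact permutation test gave p = 0.0286, the smallest it can give. Without WT1 the log2 fold change was smaller, 0.57, and the adjusted p was 0.0020 in edgeR, which is past the threshold.

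Neither enzyme gene of the last steps passed the threshold. Hsd17b3 (Entrez ID 15487, chr13:64058274-64089262), which makes testosterone, had 3.99, 3.64, 3.98 and 4.55 CPM in KO1 to KO4 and 1.62, 3.09, 3.23 and 3.81 CPM in WT1 to WT4. These levels rest on 58 to 74 counts and 26 to 62 counts per library, so counting error is larger here than for the other 9 genes. The log2 fold change was 0.46 (SE 0.22, 95% interval -0.030 to 0.95, adjusted p = 0.228 in edgeR), and the exact permutation test gave p = 0.0571. Without WT1, its lowest library, the value was 0.30. Srd5a1 (Entrez ID 78925, chr13:69573449-69611485), which makes dihydrotestosterone, had 28.4, 32.8, 34.2 and 36.7 CPM in KO1 to KO4 and 24.9, 35.5, 28.9 and 35.9 CPM in WT1 to WT4. Its labels overlapped broadly, and 16.4% of its exonic bases are shared with the predicted gene Gm17108. The log2 fold change was 0.077 (SE 0.12, 95% interval -0.20 to 0.35, adjusted p = 0.736 in edgeR). It ranged from 0.023 without WT1 to 0.15 without WT4, and without the 3 libraries with Crisp1 above 5 CPM, described below, it was -0.021.

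Insl3 (Entrez ID 16336, chr8:71689252-71690577), the peptide hormone gene, had nearly the same mean under both labels. Its level was 100.2, 125, 123 and 168 CPM in KO1 to KO4, against 98.7, 135, 126 and 163 CPM in WT1 to WT4. The means were 129 ± 28.2 and 130.4 ± 26.3 CPM (SD, n = 4), and the log2 fold change was -0.016 (SE 0.17, adjusted p = 0.964 in edgeR). Its sign turned with the scaling, being 0.0074 with DESeq2 size factors, and the 95% interval of -0.38 to 0.35 leaves room for differences in either direction. The mice themselves differed by 1.67-fold and 1.65-fold between the lowest and the highest library of a label. Insl3 lies within Jak3, a kinase gene of immune cells, and 404 of its 623 exonic bases (64.8%) are also exonic in Jak3 on the same strand, so reads there could be counted for either gene. Jak3 itself was at 8.32 to 9.47 CPM in the libraries labelled KO and 7.57 to 8.97 CPM in those labelled WT, with a log2 fold change of 0.068 (adjusted p = 0.715 in edgeR).

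Nr5a1 (Entrez ID 26423, chr2:38692656-38714542), which encodes the nuclear receptor also called SF-1 and is expressed in Sertoli cells as well as Leydig cells, was the only gene of the 10 besides Insl3 with a lower mean in the libraries labelled KO. Its level was 46.6, 46.1, 46.8 and 63.8 CPM in KO1 to KO4, against 55.2, 61.0, 59.2 and 60.1 CPM in WT1 to WT4. KO1, KO2 and KO3 lay below every library labelled WT, and KO4 lay above all of them. The log2 fold change was -0.21 (SE 0.10, 95% interval -0.44 to 0.019, adjusted p = 0.238 in edgeR), and the exact permutation test gave p = 0.143. Without KO4 it was -0.33 (adjusted p = 0.0088 in edgeR). The summed level of 9 Sertoli cell markers was 379 to 447 CPM in the libraries labelled KO and 440.5 to 456 CPM in those labelled WT, with a median log2 fold change of -0.15, 8 of 9 negative and none called. Scaled to these markers, an alternative chosen after seeing the data, the log2 fold change of Nr5a1 was -0.078 (adjusted p = 0.738 in edgeR). This scaling raised all genes alike, moving the median of all tested genes from -0.054 to 0.094, so the smaller value is not particular to Nr5a1.

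**Figure D2:**
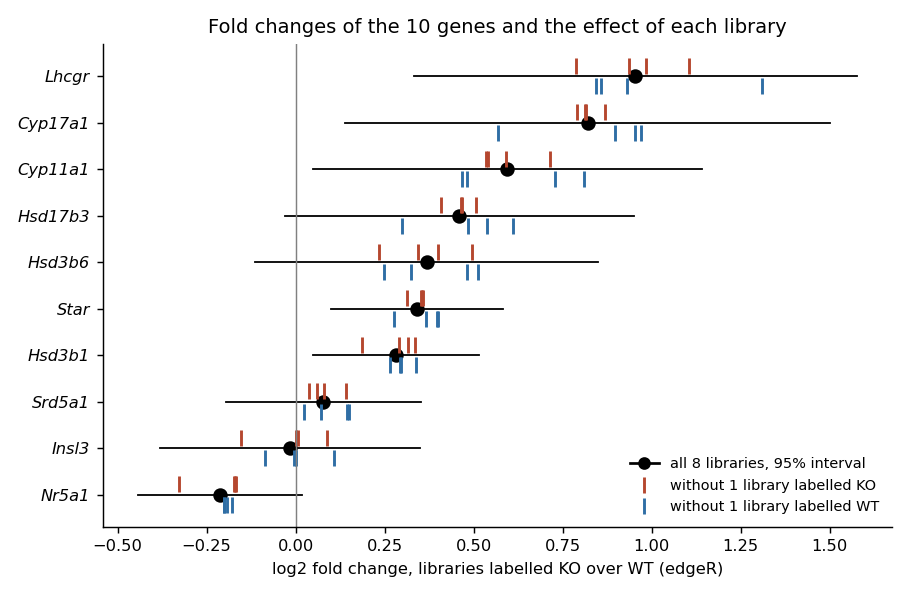
Log2 fold change of each gene, libraries labelled KO over those labelled WT (x axis), ordered by size (y axis), with black points and lines for the edgeR estimate and its 95% interval from 8 libraries and coloured ticks for the estimate without 1 library. Lhcgr at 0.95 and Cyp17a1 at 0.82 are the largest, Nr5a1 at -0.21 is the lowest, and the tick of Cyp17a1 without WT1 lies at 0.57.

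Most of the 10 genes were high or low in the same mice, whichever the label. KO4 was the highest of the 8 libraries for 10 of 10 genes, and WT1 was the lowest for 7 of 10. The summed level was 556, 674, 655 and 812 CPM in KO1 to KO4 and 388, 636, 509 and 636 CPM in WT1 to WT4. WT2 and WT4 thus exceeded KO1 in the sum. The coefficient of variation among the 4 mice had a median of 15.9% in the libraries labelled KO and 25.5% in those labelled WT, and it was wider in the latter for 7 of 10 genes. Over all 15787 tested genes the medians were 10.7% and 10.8%, and the variation was wider under the label WT for 8303 of them. WT1 was the lowest library of its label for 8 of the 10 genes. The variation ranged from 5.40% for Star to 28.4% for Lhcgr under the label KO, and from 4.35% for Nr5a1 to 45.3% for Lhcgr under the label WT.

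An epididymal transcript was found in the same libraries in which the sum was low. Crisp1, which the epididymis makes in large amounts, was at 5.52, 0.063, 0 and 0.861 CPM in KO1 to KO4 and at 27.0, 0, 9.94 and 0 CPM in WT1 to WT4. The 3 libraries above 5 CPM, KO1, WT1 and WT3, had the 3 lowest sums of the 10 genes. Defb42, another epididymal gene, was at 0.532, 1.81 and 0.633 CPM in these and at 0 in the other 5, and Lcn5 was at 0.187 CPM in WT1, 0.127 CPM in WT3 and 0 in the other 6. Rnase10, a further gene of the list, was at 5.63 to 9.31 CPM in all 8. Its 3 highest values were in the same libraries, WT3 (9.31 CPM), WT1 (7.41 CPM) and KO1 (6.66 CPM). WT4 was close to KO1, at 6.63 CPM. Leaving out these 3 libraries, a choice made after seeing the data, kept only WT2 and WT4 under the label WT. The median log2 fold change of the 10 genes was then 0.25, and 1 gene, Cyp17a1, was called higher (log2 fold change 0.60, adjusted p = 0.0022 in edgeR). Every gene of the 10 except Nr5a1 had a lower value than with all libraries, Cyp17a1 included. Cyp11a1, Hsd3b6 and Hsd17b3 were at 0.32, 0.19 and 0.26, and Lhcgr was at 0.75 (adjusted p = 0.112 in edgeR). Nr5a1 was at -0.19, against -0.21 with all libraries. A count of 0 in a library allows up to 0.183 to 0.194 CPM before TMM scaling, which covers counting error only.

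**Figure D3:**
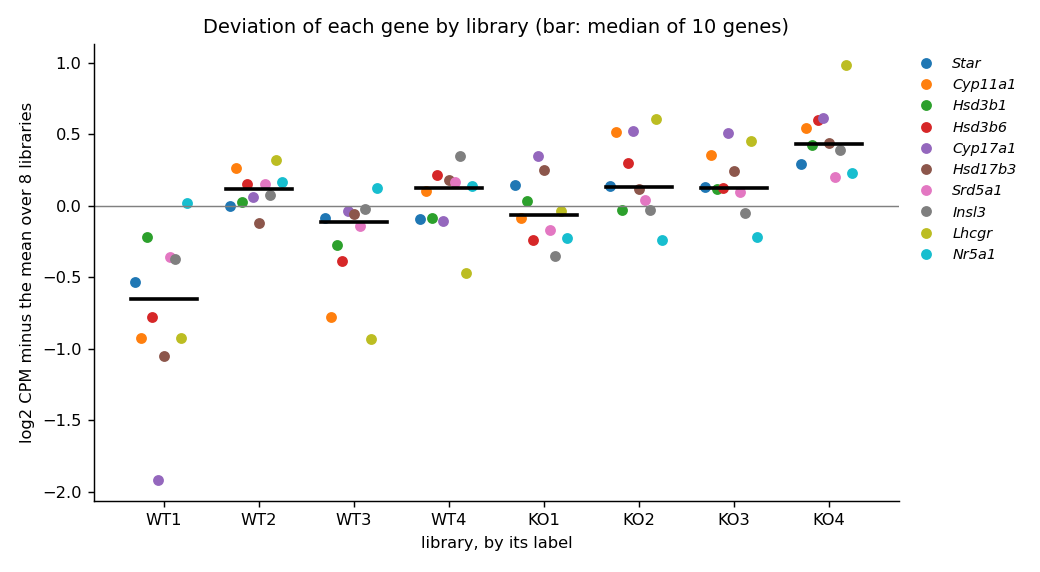
Deviation of each gene from its mean over the 8 libraries (y axis, log2 CPM) by library (x axis), with a colour for each gene and a black bar for the median of the 10. The median is lowest in WT1 at -0.65 and highest in KO4 at 0.43, and the lowest point is Cyp17a1 in WT1.

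Levels of different genes were compared per length, with the FPKM values of the deposited table averaged over 8 libraries. Insl3 was by far the highest at 314 FPKM, above 98.8% of all genes and above every other gene of the 10 in 8 of 8 libraries. Next came Hsd3b6 at 59.3, Cyp17a1 at 55.5, Cyp11a1 at 49.7 and Hsd3b1 at 48.8 FPKM. These neighbours were not in a fixed order, since Hsd3b6 exceeded Cyp17a1 in 4 of 8 libraries, Cyp17a1 exceeded Cyp11a1 in 5, and Cyp11a1 exceeded Hsd3b1 in 5. Their order also depended on the label, with Cyp17a1 first in the libraries labelled KO (70.1 FPKM, against 66.1 for Hsd3b6) and Hsd3b6 first in those labelled WT (52.5 FPKM, against 40.9 for Cyp17a1). Below them, Hsd3b1 exceeded Nr5a1, Nr5a1 exceeded Srd5a1 and Srd5a1 exceeded Star in 8 of 8 libraries, with Nr5a1 at 19.7, Srd5a1 at 13.9 and Star at 7.30 FPKM. Star exceeded Lhcgr in 8 of 8 and Lhcgr exceeded Hsd17b3 in 7 of 8 libraries, with Lhcgr at 4.90 and Hsd17b3 at 3.16 FPKM. Hsd17b3, although the last step to testosterone, thus had the lowest transcript level of the 10, above 44.5% of all genes.

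**Figure D4:**
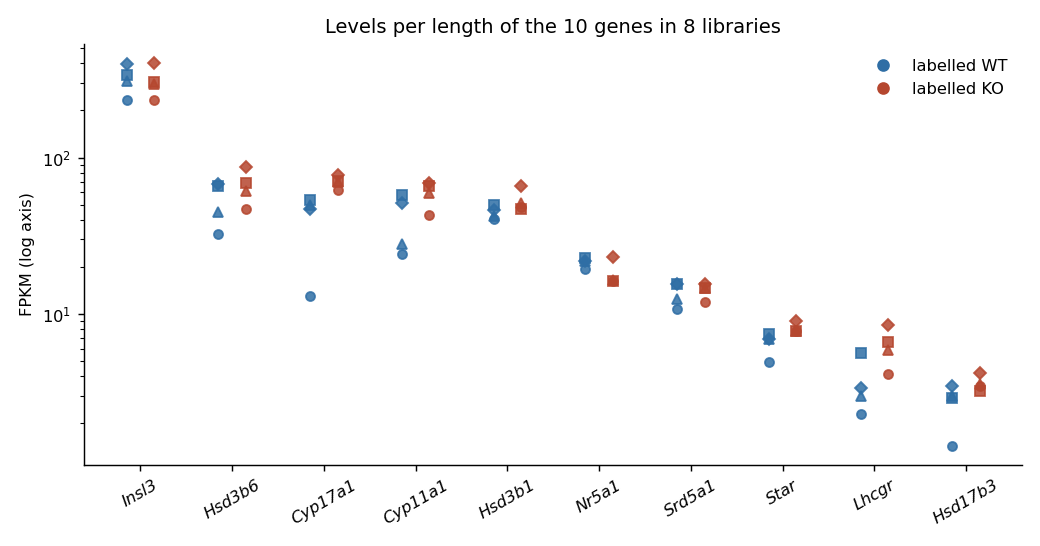
FPKM of each gene in every library (y axis, log scale), ordered by the mean over 8 libraries (x axis), with colours for the label and marker shapes for the replicate number. Insl3 stands apart at the top with a mean of 314 FPKM, and Cyp17a1 in WT1, at 13.0 FPKM, lies far below the other libraries of that gene.

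Ratios of genes within a library do not depend on the scaling, and 3 were compared by exact permutation tests with Benjamini-Hochberg adjustment over the 3. The ratio of Insl3 to Star counts, of the hormone gene to the cholesterol carrier gene, was 3.27, 4.10, 4.07 and 4.96 in KO1 to KO4 and 5.16, 4.88, 4.83 and 6.26 in WT1 to WT4. Of the 4 libraries labelled KO, 3 lay below all those labelled WT, a mean log2 difference of -0.37 (exact p = 0.0857, adjusted p = 0.129). The ratio of Hsd17b3 to Srd5a1 was 0.141, 0.111, 0.117 and 0.124 in KO1 to KO4 and 0.0652, 0.0869, 0.112 and 0.106 in WT1 to WT4, a mean log2 difference of 0.44 (exact p = 0.0571, adjusted p = 0.129). KO2 lay just below WT3, so the labels overlapped. The ratio of Hsd3b6 to Hsd3b1 was 0.989, 1.50, 1.20 and 1.34 in KO1 to KO4 and 0.809, 1.30, 1.11 and 1.47 in WT1 to WT4. Its mean log2 difference was 0.12 (exact p = 0.629, adjusted p = 0.629), less than the SD of 0.26 and 0.37 among the mice of each label, and without WT1 it was -0.049. None of the 3 passed the threshold. Leaving out WT3 brought the exact p of Hsd17b3 to Srd5a1, before adjustment over the 3, to 0.0286 (log2 difference 0.54), and leaving out KO4 did so for Insl3 to Star (log2 difference -0.47).

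The other genes of the pathway were read from lists of redox partners, other steroid enzymes, transcription factors and signalling genes. Of 20 partners and further enzymes, such as the electron carriers Fdx1 and Fdxr and the P450 reductase Por, 16 were tested and none passed in either direction, with log2 fold changes from -0.38 to 0.24 and a median of -0.024. At an unadjusted p of 0.05, 1 of the 16 was lower, Hsd3b7, a bile acid enzyme, where 10.5% of all tested genes were. It was at 5.09 ± 0.831 CPM in the libraries labelled KO and 6.65 ± 0.386 CPM in those labelled WT (SD, n = 4). The most abundant were Acbd3, a Golgi and acyl-CoA binding protein, with a log2 fold change of 0.16 (adjusted p = 0.204 in edgeR), and Dbi, an acyl-CoA binding protein, with 0.053 (adjusted p = 0.818 in edgeR). Many of these genes are expressed in germ and Sertoli cells too.

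Among 16 transcription factors, 14 were tested, and 2 rose, Nr4a1 and Nr4a3, orphan nuclear receptors known as quickly induced targets of cyclic AMP. Of all tested genes, 10.3% were called higher, so this count is not a result about the list. Nr4a1 was at 26.7, 25.5, 18.7 and 24.9 CPM in KO1 to KO4 and at 13.2, 13.4, 11.8 and 12.5 CPM in WT1 to WT4. Every library labelled KO lay above every library labelled WT, with a log2 fold change of 0.91 (SE 0.12, adjusted p = 0.00026 in edgeR). Nr4a3 was at 4.75 ± 0.688 and 2.52 ± 0.177 CPM (SD, n = 4), with a log2 fold change of 0.91 (SE 0.15, adjusted p = 0.0018 in edgeR). None of the 14 fell, and their median was -0.095. Nr0b1, a repressor of NR5A1, and Gata4, a cofactor of it, had log2 fold changes of -0.15 and -0.10.

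Of 16 genes of hormone receptors and cyclic AMP signalling, 3 rose and none fell, with a median log2 fold change of 0.035. Of all tested genes 10.3% were called higher and 1.46% lower, and nothing particular to the list was read from this count. Akap1 and Prkar2a, an anchor and a regulatory subunit of protein kinase A, which are known in sperm as well, had log2 fold changes of 1.45 (adjusted p = 1.98e-05 in edgeR) and 1.33 (adjusted p = 4.81e-05 in edgeR). Akap1 was at 116 ± 13.0 CPM in the libraries labelled KO and 42.2 ± 4.73 CPM in those labelled WT (SD, n = 4). Prkar2a was at 26.3 ± 3.86 CPM and 10.4 ± 1.30 CPM. Pde4a, a phosphodiesterase that breaks down cyclic AMP, had a log2 fold change of 0.89 (adjusted p = 0.00031 in edgeR). These genes, like Nr4a1 and Nr4a3, were higher under the same label as the late spermatid markers, and which cells their RNA came from was not tested. Rxfp2, the receptor of INSL3, was at 18.1 ± 0.744 and 17.7 ± 1.77 CPM (SD, n = 4), with a log2 fold change of 0.039 (adjusted p = 0.821 in edgeR).

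**Figure D5:**
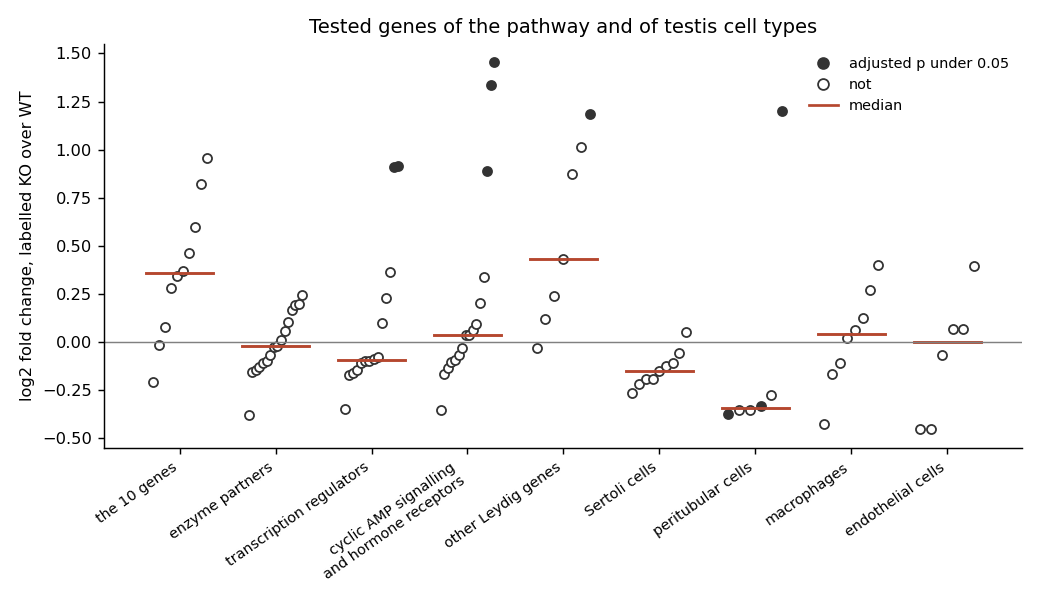
Log2 fold change, libraries labelled KO over those labelled WT (y axis), of the tested genes in each list of pathway genes or testis cell markers (x axis), with filled points for an adjusted p under 0.05 in edgeR and red bars for the median. The 10 genes have a median of 0.36 with no filled point, and the enzyme partners lie around a median of -0.024.

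Markers of the cells around the Leydig cells were read by cell type. Among all tested genes 10.3% were called higher and 1.46% lower. Of 6 peritubular markers, 5 had a negative log2 fold change and 1 a positive one, with a median of -0.35. Acta2 and Myh11 fell, with log2 fold changes of -0.38 and -0.34 (adjusted p = 0.0182 and 0.0124 in edgeR). The positive one, Actg2, rose, with 1.20 (adjusted p = 0.00044 in edgeR). None of 8 macrophage markers and none of 6 endothelial markers passed, and their medians were 0.039 and -0.0011. The summed macrophage level was 91.5 to 126 CPM in the libraries labelled KO and 85.1 to 129 CPM in those labelled WT, so both ranges overlapped. The part of these cells in the values of the 10 genes was not tested.

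The genes whose levels most resembled the 10 over the 8 libraries were sought among 12124 genes of at least 5 CPM. The measure was Pearson's r between a gene's log2 CPM and the mean standardized log2 CPM of the 10, given as a description. Among the highest were Prlr, the prolactin receptor, with r = 0.975, Ogdhl with 0.971, Zbtb8b with 0.957 and Gpt2 with 0.956. Prlr was at 26.8, 33.6, 31.8 and 40.6 CPM in KO1 to KO4 and at 14.3, 34.2, 22.5 and 34.2 CPM in WT1 to WT4. Like the sum of the 10 genes, it was lowest in WT1 and highest in KO4. None of these 4 passed the threshold by label in edgeR, with adjusted p-values from 0.194 to 0.485. All 8 points of each r share the libraries and their scaling.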

How the data were processed

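Whole testis RNA of 8 mice was sequenced from both fragment ends, each mouse giving 1 library. The labels gave each library a genotype and a replicate number, and none was left out. Low-quality reads were removed by the authors, who used, per the labels, HISAT, Bowtie2, StringTie, featureCounts and GRCm38.p6, whose versions, read length and strand setting are not given in the sources used here. The deposited table gives estimated counts before any normalization, with fractional values for 10.7% to 11.2% of the genes of a library. It also gives the authors' FPKM, scaled to transcript length and library size, which was checked against the counts on 1294 genes with a single transcript (median coefficient of variation of the implied length 0.41%). The authors' own group means, fold changes and p-values in the table were not used.

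After rounding, edgeR 4.0.16 in R 4.3.3 was used with filterByExpr at its defaults, which kept 15787 of 19906 genes, TMM factors and the quasi-likelihood test of label with no covariate, with Benjamini-Hochberg adjustment over all tested genes. CPM of a single gene was also compared by an exact two-sided permutation test over all 70 arrangements, which cannot give a p below 0.0286. The steps were tested on simulated data. No 2 libraries agreed within sampling noise (chi-square per gene 3.65 to 38.9). The p-values set the difference between the labels against the spread between mice. The total counts of 15428421 to 16350871 set the precision, and where a gene has no count up to 3 counts are possible.

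The 10 genes and all lists were chosen with earlier results of these data known. Every one of the 10 was named. From the other pathway lists the genes past the threshold were named, at most 5 a list, or else the 2 most abundant, besides the 5 genes most like the 10, of which 1 is not reported here. Hsd3b7, Nr0b1, Gata4, Fdx1, Fdxr, Por and the marker genes were named after their values were seen. Alternatives were DESeq2 1.42.0, its size factors or library size in place of TMM, the table without its 10 most abundant genes, testing without a filter, at least 10 counts in every library, limma-voom (limma 3.58.1), limma on log2 of FPKM plus 1 or 0.1, a block for the replicate number, and the omission of single libraries. Scaling to 9 Sertoli cell markers and leaving out 3 libraries with Crisp1 above 5 CPM were added after seeing the data. Promoters came from RefSeq (GRCm38.p6), transcripts and exons from GENCODE M21, and coordinates from RefSeq. Python 3.11.15 with pandas 2.3.3 and scipy 1.17.1 was used for the rest. No counts per exon were analysed here.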

Additional observations from a re-analysis of the deposited data

Results flagged for a closer look

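Of 38 groups of 4 libraries examined, 3 held a library far from the other 3, where chance flags about 1 in 20 groups, or 1.9 here. Cyp17a1 in WT1 was at 22.1 CPM, while the other libraries labelled WT averaged 81.9 CPM. Nr5a1 in KO4 was at 63.8 CPM, while the other libraries labelled KO lay between 46.1 and 46.8 CPM. Star in KO4 was at 33.8 CPM, above the 30.2 to 30.6 CPM of the other libraries labelled KO. Both libraries were at the end of the range for most of the 10 genes, WT1 as the lowest for 7 and KO4 as the highest for 10. WT1 also held the most Crisp1, at 27.0 CPM, and KO4 held 0.861 CPM. The causes were not tested.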

How the results depend on the processing

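No gene of the 10 was called higher in edgeR. DESeq2 called 2 (Star and Lhcgr), and DESeq2 size factors, testing without a filter, a minimum of 10 counts and limma-voom each called 1 (Lhcgr). Leaving out each library in turn gave 0 to 1 called higher, Lhcgr without KO1 or WT2 and Cyp17a1 without WT1, and 0 to 1 called lower, Nr5a1 without KO4. Of the alternatives chosen after seeing the data, scaling to Sertoli cell markers called 3 (Star, Hsd3b1 and Lhcgr) and moved the median of all genes from -0.054 to 0.094. Leaving out the 3 libraries with Crisp1 above 5 CPM, which kept only WT2 and WT4 under the label WT, called 1 (Cyp17a1). Same-numbered libraries did not deviate together (correlations of -0.11, 0.12, -0.41 and -0.13), so the numbers do not pair the mice. With the replicate block, 3 genes were called higher (Cyp11a1, Hsd3b6 and Lhcgr), and the exact sign-flip p of the log2 ratios was 0.375, 0.125 and 0.125, where 0.125 is the smallest it can give. Their differences (0.12, 0.44 and -0.37) cannot change under this pairing. The cause was not tested for any of these changes.

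The log2 fold change of Insl3 turned positive with DESeq2 (0.0072), DESeq2 size factors (0.0074), no filter (0.028) and Sertoli scaling (0.11), and ranged from -0.15 to 0.11 without single libraries. That of Srd5a1 turned to -0.021 without the Crisp1 libraries. Without single libraries, the log2 difference of Hsd3b6 to Hsd3b1 ranged from -0.049 (without WT1) to 0.24, of Hsd17b3 to Srd5a1 from 0.28 to 0.54, and of Insl3 to Star from -0.47 to -0.27. The median log2 fold change of the 10 genes, 0.36, stayed between 0.25 and 0.49. Of 200 gene values under 20 alternatives, 175 kept sign and side of the threshold, 17 gained a call and 8 changed sign. Depth limits Hsd17b3 most.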
